A study of Xenopus tropicalis with 18 samples.

Results

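The genes fam83h, mdga2, pde9a and samd12 were picked because thyroid hormone receptor (TR) signal near them differed between wild-type and receptor knockout intestine whether or not hormone was given. All regions of the deposited count table that overlap or lie within 10 kb of these 4 genes were taken, which gave 13 of the 9867 counted regions. Of these, 4 belong to fam83h, 1 to mdga2, 4 to pde9a and 4 to samd12, and all 13 lie inside the gene bodies. The genes were selected on the genotype differences in these counts, so those differences are described with no test. The effect of the hormone was tested only at 8 regions. Left out were the region with the widest mean genotype difference of each gene and the fam83h region starting at 153170424. The latter also differed between the TRα knockout and wild type both without and with hormone, so fam83h may have been chosen by it.

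The libraries come from intestines of Xenopus tropicalis tadpoles at stage 54, from WT, TRαKO or TRβKO animals. The series text writes the first knockout as TRαLKO, and the sample labels' TRαKO is used here. Animals were untreated or received 10 nM T3 for 18 h, and each of the 6 groups has 3 libraries, given as biological replicates. Chromatin was precipitated with an antibody described only as a TR antibody, so the receptor form that gave the signal in a knockout cannot be told from these data. The allele, the number of animals per library and an input library were not analysed here, and expression markers of the tissue cannot be read from these counts.

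Thyroid hormone receptors are nuclear receptors that sit on DNA with or without hormone, usually paired with the retinoid X receptor. Without T3 they recruit corepressors, and with T3 they exchange these for coactivators. In frogs they direct metamorphosis, in which the larval intestine is remodelled into the adult one, and TRα and TRβ are encoded by separate genes. The genes described here act in unrelated processes. In mammals FAM83H is a scaffold that binds casein kinase 1 and shapes the keratin cytoskeleton. MDGA2 is a membrane-anchored immunoglobulin-domain protein that binds neuroligins, PDE9A is a phosphodiesterase specific for cyclic GMP, and SAMD12 is a protein with a sterile alpha motif.

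Levels are counts per M tags kept (CPM), where the tags are those left after the authors' duplicate filter. Tags kept ranged over 12.4 to 17.1 M in untreated WT, 2.29 to 2.53 M in WT with T3, 7.49 to 9.28 M in untreated TRαKO, 6.03 to 8.02 M in TRαKO with T3, 5.22 to 5.80 M in untreated TRβKO and 2.76 to 3.28 M in TRβKO with T3. Duplicate tags made up 2.2% to 2.97% of tags in untreated WT and 7.57% to 22.4% in the other groups. Depth and duplicates therefore moved with genotype and treatment, and their part in the differences below was not tested. The median level of all 9342 tested regions lay between 1.45 CPM in untreated TRαKO and 2.03 CPM in TRαKO with T3.

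The fam83h gene, on chromosome 6, held regions starting at 153150491, 153162003, 153170424 and 153181737, between 471 and 717 bp wide. They are called the first, the second, the third and the fourth fam83h region in order of position, and those of the other genes likewise. They lie at 9.16%, 34.6%, 52.9% and 77.6% of the way along the 45.6 kb gene from its lower coordinate. The only mdga2 region, at 93857907 to 93858596 on chromosome 8, lies 36.5% along a gene of 381 kb. Regions of pde9a, on chromosome 2, start at 242932, 249214, 256217 and 267366, the last within 10 kb of wdr4 as well. Regions of samd12, on chromosome 6, start at 137416114, 137608869, 137615399 and 137696890 in a gene of 342 kb. The third samd12 region is 1078 bp wide, wider than 98.6% of tested regions. Coordinates are those of the count table, and genes were placed by UCB_Xtro_10.0. Exons, introns and untranslated regions were not analysed here.

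In 3 of the genes, 1 region separated all wild-type from all knockout libraries with and without T3. These were the mdga2 region, the third pde9a region and the third samd12 region. At the mdga2 region the lowest of the 6 WT libraries stood at 1.98 CPM and the highest of the 12 knockout libraries at 0.726 CPM. At the third pde9a region these values were 5.32 and 3.27 CPM, and at the third samd12 region 6.02 and 4.85 CPM. The same full separation was seen at 53 of the 9342 tested regions, or 0.567%. The fourth gene departed from the description, since at the first fam83h region 3 knockout libraries with T3 lay above the lowest WT library. The mdga2 region, the first fam83h, the third pde9a and the third samd12 region have the widest mean knockout difference of their gene. This choice was made after the values were seen. The mean keeps signs, so the opposite differences at the third fam83h region largely cancel in it (-0.23).

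**Figure D1:**
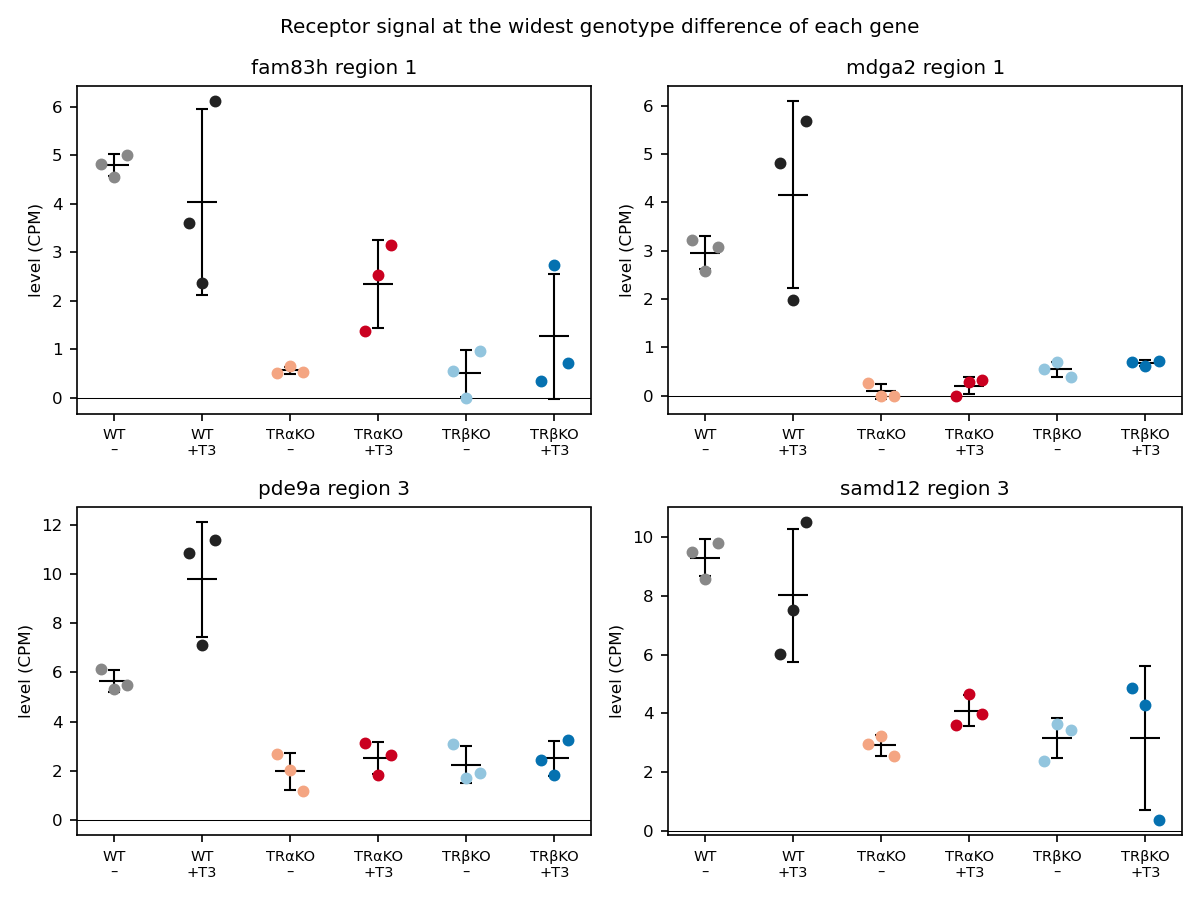
Level in counts per M tags kept (CPM) at the region of each gene with the widest mean knockout difference, by group. Points are the 3 libraries of a group, bars the mean ± SD. At mdga2, pde9a and samd12 every WT point is above every knockout point, while at fam83h the groups with T3 overlap.

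At mdga2, the knockouts kept little signal, and TRαKO the least. The 3 untreated WT libraries gave 3.22, 2.57 and 3.08 CPM (mean 2.96 ± 0.340, SD, n = 3), and those with T3 gave 4.82, 1.98 and 5.69 CPM (4.16 ± 1.94). Untreated TRαKO libraries gave 0.257, 0 and 0 CPM, and TRαKO libraries with T3 gave 0, 0.282 and 0.332 CPM. Untreated TRβKO libraries gave 0.548, 0.690 and 0.383 CPM, and with T3 0.693, 0.610 and 0.726 CPM. Thus all TRαKO libraries lay below all TRβKO libraries, but on 2 against 9 reads without T3 and 4 against 6 with T3. The fitted TRβKO minus TRαKO difference, given with no test, was 2.49 ± 1.07 (SE, log2) without and 1.72 ± 1.06 with T3. How many of all regions separate the knockouts in this way was not counted.

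These levels rest on few reads in the knockouts. The untreated WT libraries held 126 reads at mdga2 against 2 in untreated TRαKO, a ratio per tag of 35.9, with a 95% exact interval of 9.72 to 299 that covers counting error only. With T3 it was 30 reads against 4, a ratio of 21.7 (7.64 to 84.8). Against TRβKO the ratios were smaller, 5.35 (2.73 to 12) without T3 and 6.11 (2.50 to 17.9) with T3. The fitted log2 difference from WT was -4.89 ± 0.82 (SE) in untreated TRαKO and -4.30 ± 0.80 with T3. Without replicate 1 of untreated TRαKO, which held both reads of its group, the fitted value was -7.31, and without reads in a group such a value has no bound. Among all tested regions the mdga2 level stood at percentile 88.8 in untreated WT but at 0.0856 in untreated TRαKO and 3.36 in untreated TRβKO.

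The third pde9a region was high in WT and kept a moderate level in both knockouts. Untreated WT libraries gave 6.14, 5.32 and 5.5 CPM (5.65 ± 0.433), and those with T3 10.8, 7.12 and 11.4 CPM (9.78 ± 2.32). Untreated TRαKO libraries gave 2.70, 2.05 and 1.20 CPM and TRαKO libraries with T3 3.12, 1.83 and 2.66 CPM. Untreated TRβKO libraries gave 3.11, 1.73 and 1.92 CPM and TRβKO libraries with T3 2.42, 1.83 and 3.27 CPM. The 4 knockout groups overlapped each other and had means between 1.98 and 2.54 CPM. On the log2 scale TRαKO differed from WT by -1.5 ± 0.34 without and -1.93 ± 0.37 with T3, and TRβKO by -1.32 ± 0.36 and -1.97 ± 0.43. Both knockouts were set against the same WT libraries, so these values are not independent of each other.

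At the third samd12 region the knockouts also kept signal. Untreated WT libraries gave 9.51, 8.59 and 9.79 CPM (9.30 ± 0.629), and those with T3 6.02, 7.51 and 10.5 CPM (8.01 ± 2.28). Untreated TRαKO libraries gave 2.96, 3.23 and 2.54 CPM and TRαKO libraries with T3 3.62, 4.66 and 3.98 CPM. Untreated TRβKO libraries gave 2.38, 3.62 and 3.45 CPM and TRβKO libraries with T3 4.85, 4.27 and 0.363 CPM, so 1 library of the last group, with 1 read, stood far below the other two. Untreated TRαKO differed from WT by -1.66 ± 0.30 (log2) and untreated TRβKO by -1.55 ± 0.32. With T3 the differences were -0.96 ± 0.35 and -1.30 ± 0.41, and the latter was -0.81 without that low library, replicate 3. Even in the knockouts this wide region stood at or above percentile 85.8 of all regions in each group.

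At the first fam83h region the genotypes were far apart without T3 and closer with it. Untreated WT libraries gave 4.83, 4.56 and 5.02 CPM (4.80 ± 0.231) against 0.514, 0.646 and 0.534 CPM in TRαKO and 0.548, 0 and 0.958 CPM in TRβKO. The WT libraries with T3 gave 3.61, 2.37 and 6.12 CPM (4.04 ± 1.91), those of TRαKO 1.37, 2.54 and 3.15 CPM (2.36 ± 0.905), and those of TRβKO 0.346, 2.75 and 0.726 CPM (1.27 ± 1.29). With T3, therefore, both knockouts overlapped WT. The difference from WT was -3.04 ± 0.50 in untreated TRαKO but -0.78 ± 0.51 with T3, and -3.25 ± 0.56 in untreated TRβKO against -1.58 ± 0.62 with T3. The value for TRαKO with T3 ranged from -1.06 without replicate 2 of WT with T3 to -0.37 without its replicate 3, and that for TRβKO with T3 was -2.87 without replicate 2 of TRβKO with T3. Within TRαKO the log2 effect of T3 was 1.99 ± 0.56, whereas in WT it was -0.26 ± 0.46. Over all tested regions the median effect of T3 was 0.46 in TRαKO and 0.02 in WT. With DESeq2 the TRαKO effect was 1.46 at this region, and the median over all regions was -0.09.

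The mean of the 4 knockout minus WT differences was -3.54 at mdga2, -2.16 at the first fam83h region, -1.68 at the third pde9a region and -1.37 at the third samd12 region. A lower mean was found at 10, 47, 129 and 284 of the tested regions, which is 0.107%, 0.503%, 1.38% and 3.04%. By this mean the genes differ widely in how far they stand from other regions, and samd12 was the least extreme. The genes were chosen on these differences, so the ranks only describe them. The mdga2 value also rests on few knockout reads. All 4 regions kept a negative difference in both knockouts, without and with T3, in every alternative that was run.

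**Figure D2:**
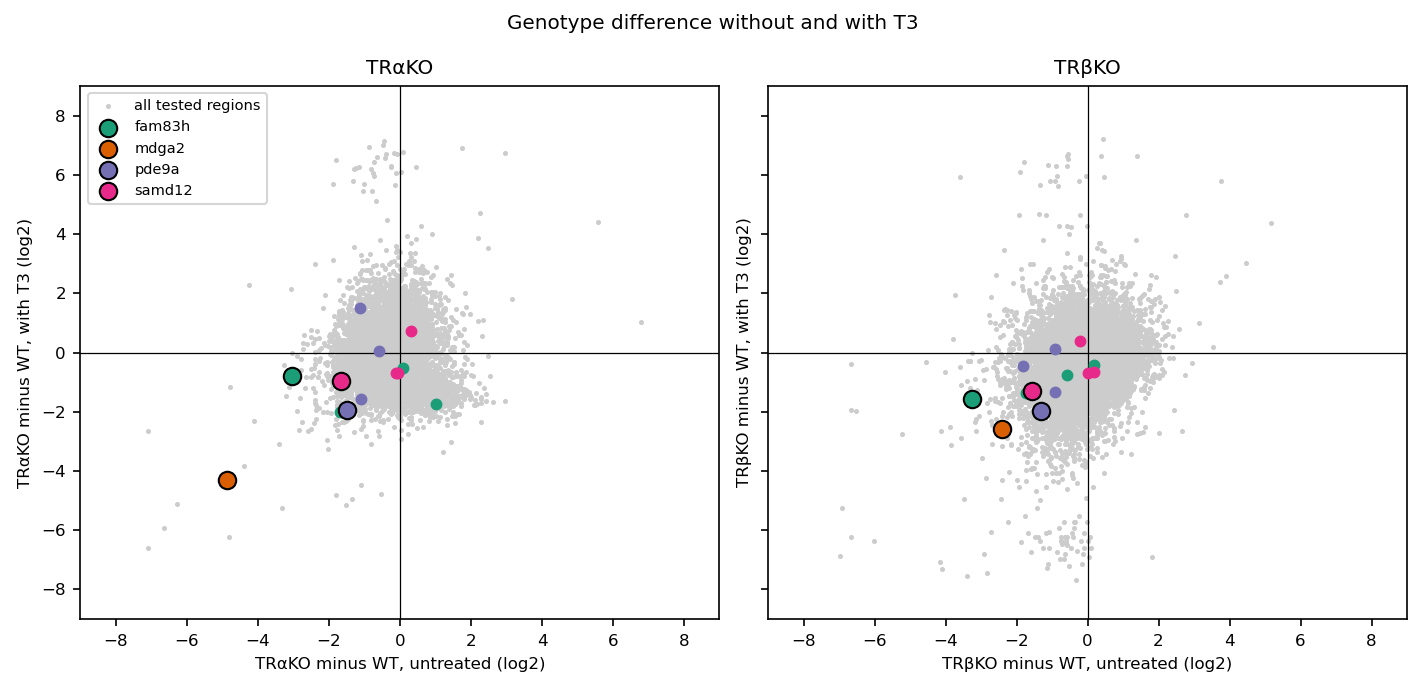
Log2 difference from WT with T3 (vertical axis) against that without T3 (horizontal axis), for TRαKO (left) and TRβKO (right). Grey points are the 9342 tested regions; coloured points are regions of the genes, outlined and larger for the widest difference of each gene. The mdga2 point lies at -4.89 and -4.30 on the left, and the third fam83h region at 1.03 and -1.74.

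Peak calls made by the authors per library favoured untreated WT. The first fam83h region, the mdga2 region and the third samd12 region had a peak in all 3 untreated WT libraries and in no other library. All 9817 regions on chromosomes had a peak in at least 2 libraries, which these regions had only through untreated WT. Their peaks there are therefore no further support for their higher WT levels. At the third pde9a region the untreated WT peaks had fold enrichments, as given by MACS, of 18.0 to 21.4, and 1 untreated TRβKO library had a peak of 4.99-fold. It too had peaks in at least 2 libraries only through untreated WT, so its WT peaks are no further support either. The mdga2 peaks were weak, with folds of 3.80 to 4.73 and none with a -log10 q of 5 or more. Of the 13 regions, 8 had peaks in untreated WT alone, against 32.6% of the 9817 regions on chromosomes. These WT libraries were also the deepest, and the part of depth in the peak calls was not tested. In WT with T3, none of these 4 regions had a peak in any library, although the third pde9a region held 27, 18 and 26 reads there. Regions with at least as many reads had a peak in 85.3%, 68.5% and 87.5% of cases in those libraries.

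Most of the other regions of these genes did not follow the pattern. In untreated libraries all 3 WT values lay above all TRαKO values at 7 of the 13 regions and above all TRβKO values at 8, while over all tested regions this was so at 22.5% and 19.8%. With T3 the counts were 6 and 4 of 13, with 12.8% and 13.5% over all regions. All these counts include the regions by which the genes were chosen. They also include the 8 regions with peaks in untreated WT alone, which entered the count table only through that group. The third pde9a and the second fam83h region had 1 peak each in a knockout and needed untreated WT to reach 2 libraries. So did the second samd12 region, with 1 peak in untreated WT and 1 in TRαKO with T3. The untreated counts are therefore no support for higher WT levels at these genes. The median log2 difference of the 13 regions from WT was -1.10 and -0.91 in untreated TRαKO and TRβKO, and -0.78 and -0.74 with T3. Over all regions these medians were -0.28, -0.18, 0.04 and -0.30.

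Next to the widest differences, the fourth fam83h region and the second pde9a region showed WT-high values in some comparisons. The fourth fam83h region gave 1.90, 2.28 and 2.59 CPM in untreated WT, 0.514 to 0.862 CPM in untreated TRαKO and 0.345 to 0.958 CPM in untreated TRβKO. With T3, WT gave 0.803, 3.56 and 0.875 CPM, so a single library carried its mean, and TRαKO gave 0.249 to 0.564 CPM. The second pde9a region gave 3.24 to 4.03 CPM in untreated WT, 1.08 to 2.0 CPM in TRαKO and 1.21 to 2.49 CPM in TRβKO. With T3 its WT values of 5.22, 5.53 and 1.31 CPM overlapped those of both knockouts. Both regions were thus separated by genotype without T3. Both had peaks in untreated WT alone and entered the count table only through that group. Their higher untreated WT levels are therefore no further support for the pattern.

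At the first pde9a region the order of WT and TRαKO turned with treatment. Untreated WT libraries gave 1.24 to 1.99 CPM and untreated TRαKO 0.668 to 0.900 CPM. With T3, WT gave 0.395 to 0.438 CPM, which is 1 read in each library, while TRαKO gave 0.499 to 1.83 CPM. This region had peaks in untreated WT alone, so its higher untreated WT level is no support for a change of order. Without T3, 22.5% of all tested regions had WT above TRαKO. The share with WT below TRαKO with T3 is not given here. The fourth pde9a region separated WT from TRβKO without T3 (1.61 to 2.67 against 0.383 to 0.690 CPM), and with T3 all genotypes overlapped. The first, the second and the fourth samd12 region and the second fam83h region overlapped between WT and both knockouts without T3, with group means between 1.32 and 2.47 CPM. With T3 the one separation among these was the first samd12 region, where WT gave 2.63 to 2.81 CPM and TRαKO 1.33 to 1.98 CPM.

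**Figure D3:**
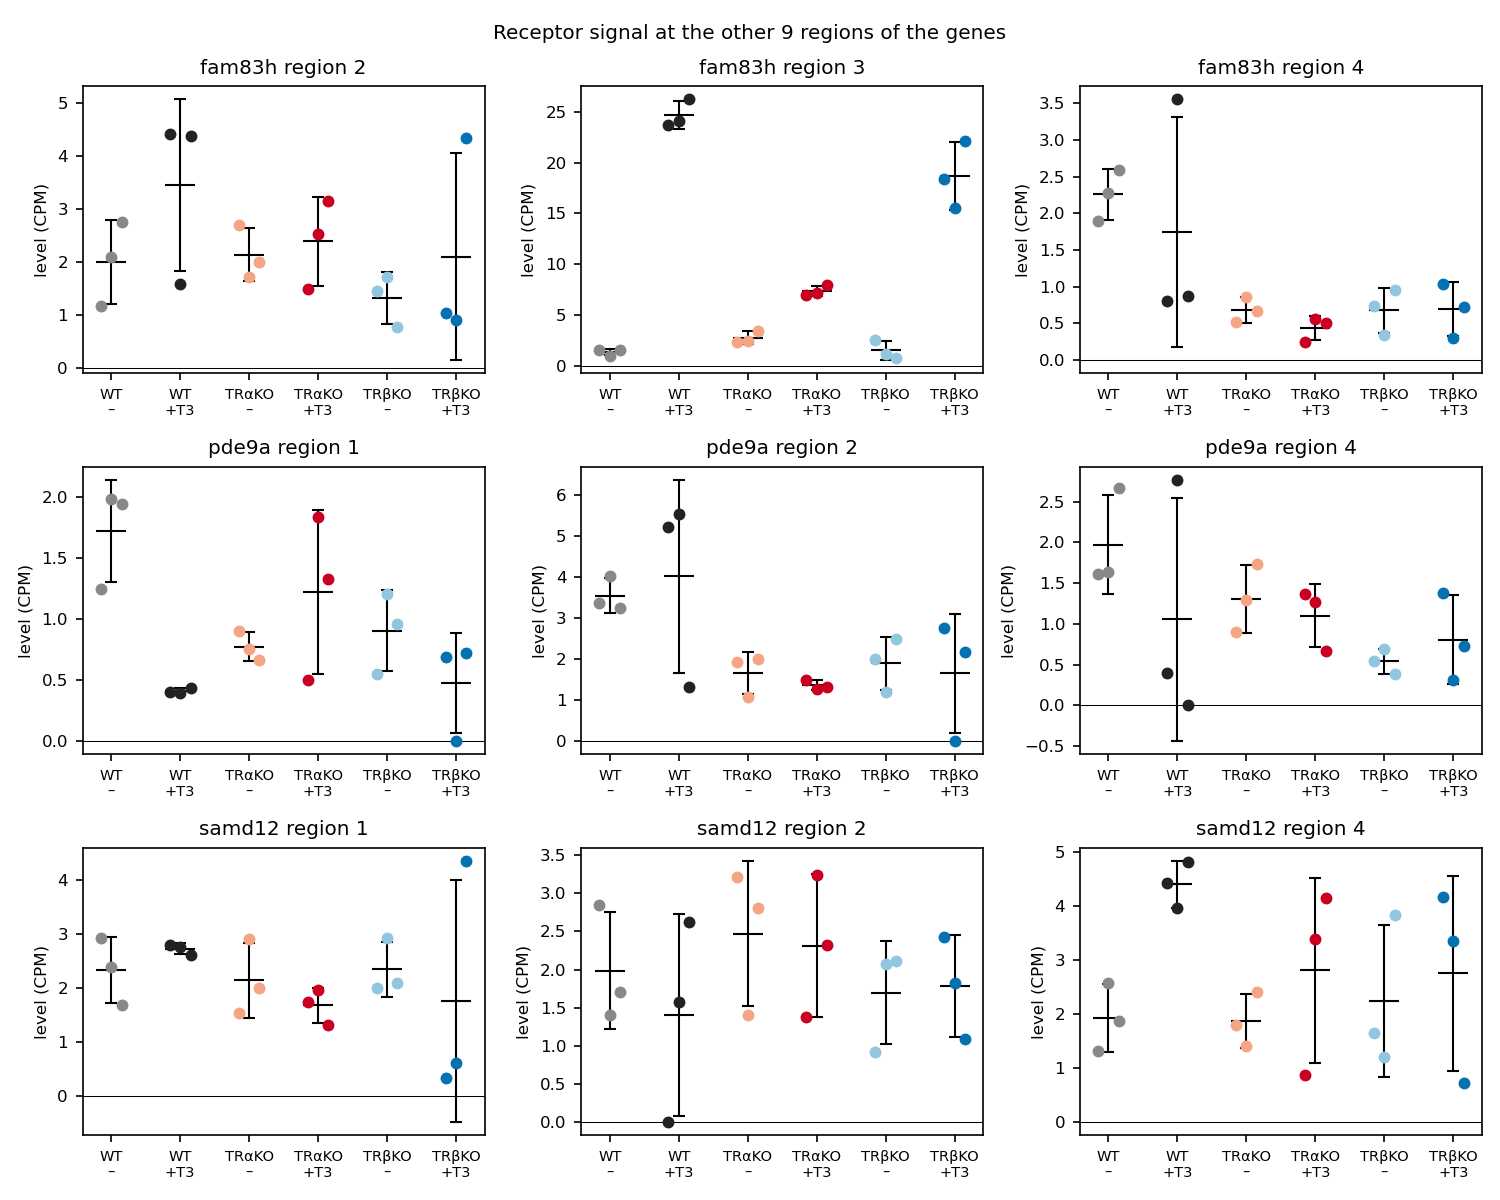
Level in counts per M tags kept (CPM) at the other 9 regions of fam83h, pde9a and samd12, by group. Points are the 3 libraries of a group, bars the mean ± SD, and the thin line marks 0. The third fam83h region has a range of its own, with WT and TRβKO libraries with T3 between 15.6 and 26.3 CPM.

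The third fam83h region, 19.9 kb from the first, had high signal in libraries with T3 and low signal without it. Untreated libraries gave 1.54, 0.993 and 1.54 CPM in WT, 2.31, 2.48 and 3.47 CPM in TRαKO and 2.56, 1.21 and 0.766 CPM in TRβKO. With T3 they gave 23.7, 24.1 and 26.3 CPM in WT (24.7 ± 1.37), 6.98, 7.20 and 7.97 CPM in TRαKO (7.38 ± 0.517) and 18.4, 15.6 and 22.1 CPM in TRβKO (18.7 ± 3.30). In every genotype the libraries with T3 lay above all untreated ones, and with T3 all TRαKO libraries lay below those of the other genotypes. Without T3 the TRαKO libraries lay above those of WT and overlapped those of TRβKO. With T3, every WT library lay above every TRαKO library at 12.8% of all tested regions. The shares of all regions with the other orders are not given here. Signal rose with T3 by 4.19 ± 0.28 on the log2 scale in WT, by 1.42 ± 0.27 in TRαKO and by 3.60 ± 0.31 in TRβKO. These values are given with no test, since fam83h may have been chosen by this region. With DESeq2 the TRαKO rise was 0.87, the lowest over all alternatives. Peaks were called there in all 9 libraries with T3, in 2 untreated TRαKO libraries and in no untreated WT or TRβKO library.

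Differences between these T3 effects are made of the same genotype differences on which the genes were selected, so they are given with no test, as contrasts added after the data had been seen. The effect in TRαKO minus that in WT was -2.77 ± 0.39 (SE, log2), in TRβKO minus that in TRαKO 2.18 ± 0.43, and in TRβKO minus that in WT -0.59 ± 0.45. The TRαKO minus WT difference at this region was 1.03 ± 0.31 without and -1.74 ± 0.24 with T3. Its sign thus differed between untreated libraries and those with T3, unlike at the first fam83h region.

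None of the 8 regions tested for T3 passed the edgeR test in any genotype, nor did any with DESeq2. At an unadjusted p under 0.05 there were 2 in WT and 0 in each knockout, and the share of all regions at that level was not taken. The regions starting at 153181737, 242932, 249214, 267366 and 137416114 had peaks in untreated WT alone and entered the count table only through that group. Those starting at 153162003 and 137608869 also needed untreated WT to have a peak in 2 libraries, as all regions on chromosomes had. Untreated WT is the baseline of the WT effect, so a fall with T3 in WT at these regions is no support for an effect of T3. How far this choice moved the WT effects was not tested. By edgeR 11.3%, 8.67% and 11.8% of all tested regions were called for T3 in WT, in TRαKO and in TRβKO. The 8 regions had log2 effects of T3 between -2.02 ± 0.97, at the first pde9a region in WT, and 1.17 ± 0.48, at the fourth samd12 region in WT. At the latter the untreated WT libraries gave 1.32, 2.57 and 1.86 CPM and those with T3 4.42, 3.95 and 4.81 CPM. This rise was the largest at the 8 regions and was not called (edgeR, adjusted p = 0.13). At the 4 regions with the widest genotype differences the WT effect of T3, given without a test, was -0.26 ± 0.46 (fam83h), 0.49 ± 0.56 (mdga2), 0.78 ± 0.33 (pde9a) and -0.22 ± 0.32 (samd12).

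**Figure D4:**
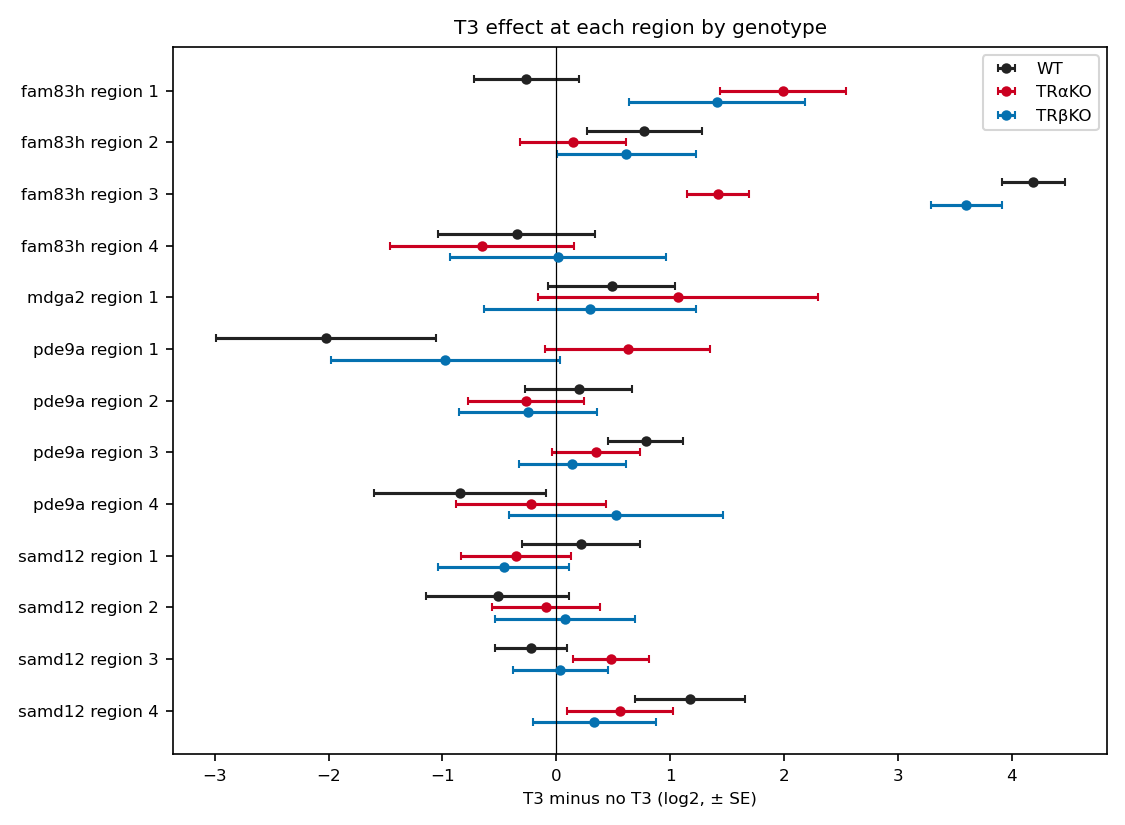
Log2 effect of T3 in each genotype at the 13 regions, with its SE as bars. The third fam83h region stands apart, at 4.19 in WT, 1.42 in TRαKO and 3.60 in TRβKO.

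The 4 regions were set beside the tested regions around them by mean knockout difference, as a description. Within 500 kb of the first fam83h region lay 33 other tested regions, whose mean knockout minus WT difference ranged from -1.69 to 0.68 with a median of -0.67. Around the third pde9a region 20 regions ranged from -1.45 to 3.05 (median -0.49), and around the third samd12 region 3 ranged from -0.37 to 0.30. The mdga2 region had a single neighbour, 422 kb away, at 1.10. None of these neighbours was lower than the region it was set beside, and none had every WT library above every knockout library. All 3 neighbours of the third samd12 region are other samd12 regions. The lowest around the first fam83h region, at -1.69, is the fourth fam83h region. Each centre was chosen for its low value within its gene, so standing below other regions of that gene was fixed in advance. The genes were chosen on these differences as well, and few of all tested regions stood lower. Standing below the neighbours outside the gene is therefore no support either.

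The nearest counted regions beyond 10 kb of the genes lay 12.1 and 29.7 kb from fam83h, 15.6 and 24.0 kb from pde9a, 180 and 822 kb from mdga2, and 309 and 541 kb from samd12. The region starting at 284896, on the higher side of pde9a, gave 1.81 ± 0.325 CPM in untreated WT and 3.04 ± 0.807 with T3. In TRβKO it gave 0.662 ± 0.174 and 0.676 ± 0.0597 CPM, below every WT library, and in TRαKO 1.17 ± 0.513 and 1.38 ± 1.13 CPM. On the higher side of samd12, the region starting at 138272841 gave 5.16 ± 0.600 CPM in untreated WT, 5.34 ± 0.170 in TRαKO and 8.18 ± 3.27 in TRβKO. The regions on either side of mdga2 gave 1.62 ± 0.219 and 1.42 ± 0.287 CPM in untreated WT and 1.14 ± 0.0610 and 1.26 ± 0.176 CPM in TRαKO. The 2 regions flanking fam83h gave 2.52 ± 0.333 and 1.39 ± 0.319 CPM in untreated WT and 1.5 ± 0.431 and 0.663 ± 0.236 CPM in TRαKO. In untreated TRβKO they gave 1.755 ± 0.731 and 0.537 ± 0.282 CPM. On the lower side of pde9a and samd12 the nearest regions gave 2.37 ± 0.481 and 1.24 ± 0.0635 CPM in untreated WT. They gave 1.885 ± 0.599 and 1.22 ± 0.5065 CPM in untreated TRαKO and 1.19 ± 0.788 and 2.55 ± 0.528 CPM in untreated TRβKO.

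**Figure D5:**
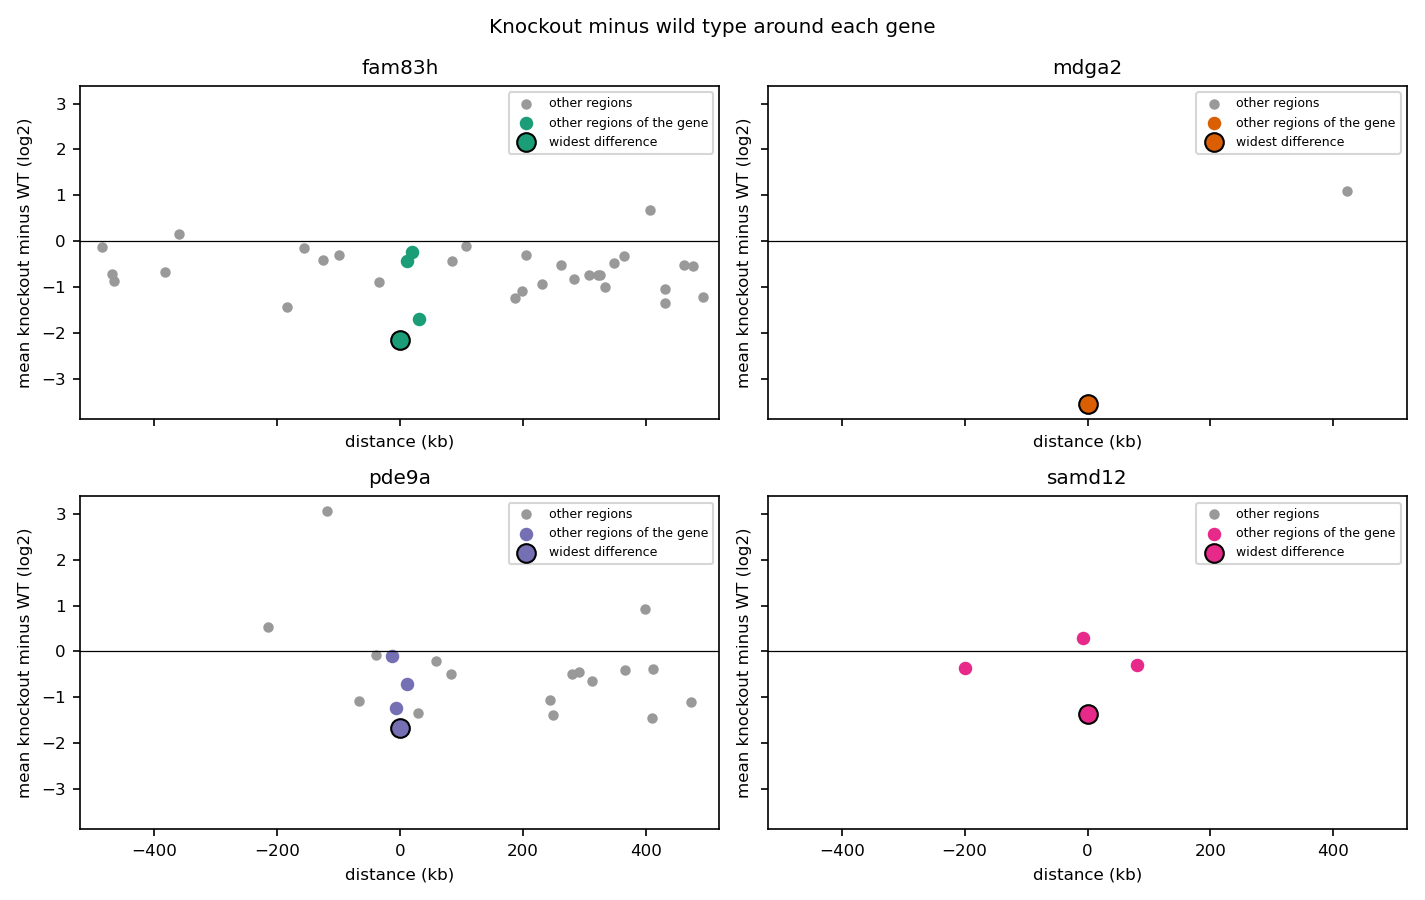
Mean of the 4 knockout minus WT log2 differences (vertical axis) of all tested regions within 500 kb of the widest difference of each gene, against the distance from it in kb (horizontal axis). The outlined point at 0 is the region itself, which was chosen for its low value, and in all 4 panels no neighbour lies below it.

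Across the 18 libraries the 4 regions with the widest differences varied together. Pearson's r of log2(CPM + 0.5) was 0.89 between mdga2 and pde9a and between 0.57 and 0.69 for the other 5 pairs. These regions were chosen for the same genotype pattern and the libraries share their depth, so the correlations only describe them. Within fam83h the first region had r of 0.30, 0.20 and 0.45 with the second, the third and the fourth region.

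The regions most like those of mdga2 and pde9a in the 18 libraries included the same one, at 147821220 on chromosome 3 near the transfer RNA gene trnat-agu, with r of 0.93 and 0.92. It gave 9.72 ± 0.974 and 11.1 ± 1.11 CPM in WT without and with T3, and group means of 1.80 to 2.50 CPM in the knockouts. For mdga2 the next were regions of LOC116411696 (r = 0.88) and LOC116407622 (r = 0.88), the latter at 4.6 CPM in untreated WT and 0.0445 CPM in untreated TRαKO. For the third pde9a region they were LOC101734024 (r = 0.88) and LOC116407328 (r = 0.86). The third samd12 region was most like regions of rnf40, coro1a and rab11fip4 (r = 0.88, 0.87 and 0.87), and the first fam83h region most like those of barx1 and ccdc66 (r = 0.85 and 0.82) and a region at 96000672 on chromosome 5 with no gene within 10 kb (r = 0.81). The third fam83h region matched other T3-high regions more closely, at babam2, LOC101732737 and acsl4 (r = 0.99, 0.98 and 0.98). The babam2 region gave 30.1 ± 1.18 CPM in WT with T3, 9.89 ± 0.499 in TRαKO with T3 and 22.5 ± 1.77 in TRβKO with T3. For the other 8 regions the highest r values lay between 0.74 and 0.88.

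In the comparisons with WT, other genes of the same pathways and families were called at shares near or below those over all regions. Of 44 genes of cyclic GMP signalling and its phosphodiesterases other than pde9a, 17 had 50 tested regions. Against WT, edgeR called 0 of the 50 in untreated TRαKO (10 at an unadjusted p under 0.05, 3 by DESeq2), 4 lower in TRαKO with T3, and 2 lower in TRβKO both without and with T3. Over all regions edgeR called 2.75%, 8.38%, 3.95% and 4.23% in these comparisons in either direction. DESeq2 called 439 of all tested regions in untreated TRαKO. The share of all regions at an unadjusted p under 0.05 was not taken. Counts at that level, here and for the lists below, thus have no background and show no excess. The list's median log2 differences were -0.49, -0.05, -0.51 and -0.55, beside -0.28, 0.04, -0.18 and -0.30 over all regions. A region of npr2, the gene of a natriuretic peptide receptor that makes cyclic GMP, held 3 reads in untreated TRβKO and 89 in untreated WT, a ratio per tag of 11.3 (3.76 to 56.0; edgeR, adjusted p = 0.0078). It missed the threshold without replicate 3 of untreated TRβKO (edgeR, adjusted p = 0.056, in a range of 0.0034 to 0.056 over left-out libraries). A region of nos3, a nitric oxide synthase gene, held 3 reads in TRβKO with T3 and 27 in WT with T3, a ratio of 11 (3.38 to 56.6; edgeR, adjusted p = 0.0048), and DESeq2 did not call it.

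The other lists gave few calls. None of 7 regions of 6 genes of the FAM83, casein kinase 1 and keratin families was called against WT by edgeR or DESeq2 in either knockout, and 1 to 2 per comparison had an unadjusted p under 0.05. Among 92 regions of 24 synaptic and immunoglobulin adhesion genes, edgeR called 0 in untreated TRαKO (14 at an unadjusted p under 0.05, 2 by DESeq2), 1 higher and 1 lower in TRαKO with T3, 1 lower in untreated TRβKO and 2 lower in TRβKO with T3. Among 21 regions of 10 genes with a sterile alpha motif it called none against WT, with 1 to 6 at an unadjusted p under 0.05, and DESeq2 called 1, in TRαKO with T3. The edgeR shares of these 3 lists were below those over all regions in each comparison with WT. In simulated data the fit recovered 60% of 4-fold falls in TRαKO without T3 and 21% with T3. Few calls therefore do not show that differences were absent.

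Between the knockouts with T3, 10.4% of all regions were called, 584 higher and 386 lower in TRβKO. Of the lists' regions, those called higher and lower in TRβKO numbered 2 and 5 of 50 for cyclic GMP, 1 and 0 of 7 for FAM83 and its partners, 0 and 4 of 92 for adhesion, and 0 and 2 of 21 for the sterile alpha motif. The regions named from them are those with the largest changes. A region of opcml, an immunoglobulin adhesion gene, gave 0.434 ± 0.378 CPM in TRβKO and 3.14 ± 1.02 CPM in TRαKO (log2 difference -2.78 ± 0.71; edgeR, adjusted p = 0.0038), and stayed called in every alternative. Regions of pde3a, pde4c, chl1 and both named regions of shank2 were also called lower in TRβKO, by -2.25 to -3.10 on the log2 scale, as was another chl1 region against WT (-3.03). That chl1 region held 3 reads in TRβKO with T3 against 21 in WT, a ratio per tag of 8.55 (2.55 to 44.8), and a shank2 region held 2 reads in TRβKO against 43 in TRαKO, a ratio of 9.08 (2.37 to 77.4). The regions of pde3a, pde4c, chl1 and shank2 held 2 to 6 reads in TRβKO, and each of these calls was lost without at least 1 library. Of the calls between the knockouts, those at pde3a, chl1 and both shank2 regions were also lost with DESeq2. The pde3a call was lost with TMM scaling too. The chl1 call against WT was lost without each of 3 single libraries, the second replicate of WT with T3 and the first and the second of TRβKO with T3, and with TMM scaling or DESeq2. A region of the casein kinase gene csnk1a1 had more receptor signal in TRβKO than in TRαKO with T3. It gave 6.10 ± 1.56 against 2.40 ± 0.749 CPM (log2 difference 1.34 ± 0.45, edgeR, adjusted p = 0.041). A region of the adhesion gene lsamp had more receptor signal in TRαKO than in WT with T3 (log2 difference 2.34 ± 0.74, edgeR, adjusted p = 0.029). Both calls were lost when single libraries were left out, among them replicate 1 of TRαKO with T3. The csnk1a1 call was also lost with all tags as library size.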

How the data were processed

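Per the submitters' processing notes, reads were aligned with Bowtie2 2.3.4.1, peaks were called with MACS2 2.1.1.20160309 and regions were counted with DiffBind. The headers of the deposited peak lists give MACS 2.2.7.1, run on each library alone with q-values up to 0.05, no control library and 1 tag kept per position. The deposited count table holds the authors' raw read counts per region and library, not scaled. The peak lists hold, per the file headers, a pileup signal in extended tags, the fold enrichment over the local background (a ratio) and -log10 p-values and q-values. The genome build is not given in the sources used here. With UCB_Xtro_10.0 gene positions, 7.42% of regions lay within 500 bp of a gene end, against 4.20% and 3.77% after shifts of 100 kb.

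Groups follow the genotype and the treatment in the labels. Counts of all 18 libraries were fitted with 6 group means by edgeR 4.0.16 (robust quasi-likelihood, R 4.3.3), with tags kept as library size. Of 9867 regions, 9342 passed filterByExpr, including all 13 described. P-values are two-sided, Benjamini-Hochberg adjusted over all tested regions, with a threshold of 0.05, and measure the spread between these samples. SEs come from the quasi-likelihood F. Alternatives were TMM scaling, DESeq2 1.42.0, all tags as library size, no filter, a replicate block and leaving out each library. The fit was tested on simulated data with 4-fold changes in TRαKO. Against WT it recovered 98% of rises and 60% of falls without T3, and 80% and 21% with T3. Of its calls 3.07% and 2.88% were false. The variance between replicates was 1.86 to 2.28 times that of counting error (chi-square per region). Tables and figures were made with Python 3.11.15, pandas 2.3.3, numpy 2.4.6, scipy 1.17.1 and matplotlib 3.10.9.

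The genes and the gene lists were chosen with earlier results of these data known. Named are all regions within 10 kb of the genes, the 3 regions most correlated with each, the nearest region on either side, and up to 4 regions per list past the threshold in a genotype comparison with the largest change. Of the lists' genes, 43 of 44, 21 of 22, 45 of 49 and 38 of 44 were matched by symbol.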

Additional observations from a re-analysis of the deposited data

How the results depend on the processing

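The knockout minus WT differences of the 4 regions with the widest change kept their sign in all alternatives, as did the T3 effects at the third fam83h region. Over all tested regions, the number called moved more. Splits below are higher and lower. For untreated TRαKO against WT it was 257 (154 and 103), but 413 with TMM scaling (370 and 43), 439 with DESeq2 (385 and 54) and, with all tags as library size, 128 and 195. For TRαKO with T3 it was 101 and 682, and 172 and 477 with all tags. For untreated TRβKO against WT it was 369 (193 and 176), 405 and 107 with TMM, 561 with DESeq2 (379 and 182) and, with all tags, 126 and 289. The majority in both untreated knockouts thus turned from higher to lower with all tags. For TRβKO with T3 it was 395 (54 and 341), but 212 with TMM (76 and 136) and 242 with DESeq2 (110 and 132). For TRβKO against TRαKO, untreated, it was 58 (38 and 20), 27 and 28 with TMM and 89 with DESeq2 (32 and 57). With T3 it was 584 and 386, but 648 and 265 with TMM, 717 and 149 with DESeq2 and 520 and 546 with all tags. For T3 in WT it was 956 and 101, 904 and 240 with DESeq2 and 902 and 273 with all tags. For T3 in TRαKO it was 810 (803 and 7), 449 with TMM (400 and 49) and 410 and 154 with DESeq2. The cause of these moves was not tested; TMM moved the median log2 difference of all regions from -0.28 to 0.07 in untreated TRαKO against WT, and from 0.46 to 0.07 for T3 in TRαKO.

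Leaving out each library gave 143 to 312 and 587 to 797 calls for TRαKO against WT without and with T3. It gave 171 to 441 and 267 to 400 for TRβKO against WT, and 35 to 63 and 698 to 1043 for TRβKO against TRαKO. For T3 it gave 985 to 1121 in WT, 614 to 839 in TRαKO and 1017 to 1133 in TRβKO. Calls in the same direction both without and with T3 numbered 35 for TRαKO against WT (22 to 39), 48 for TRβKO against WT (22 to 45) and 27 for TRβKO against TRαKO (20 to 29). Leaving out any untreated WT library lowered the number for untreated TRαKO and TRβKO against WT by over 1.5 times.

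Replicate numbers paired the libraries only weakly. Deviations of same-numbered libraries had r of -0.0206 to 0.0443, with a median of 0.0179 against -0.00874 for other numbers. Still, 17 of 18 libraries correlated best with their own number. The main fit did not include replicate number. With the replicate block, 228, 740, 315 and 344 regions were called for TRαKO without and with T3 and TRβKO without and with T3 against WT. Without the block these were 257, 783, 369 and 395. The 8 regions tested for T3, none of which was called in the main fit, stayed uncalled with the block.

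With Spearman's rho in place of Pearson's r, 0 to 2 of the 3 most like regions were shared per region. With peaks of -log10 q of at least 5, the mdga2 region had a peak in 0 libraries and the third fam83h region in 9. A 50 kb window took 19 regions in place of 13. The 2 to 30 reads per group behind the mdga2 values outside untreated WT limit their precision.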
